A study of Mus musculus with 2 samples.

Results

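The cells described here are mature neutrophils of the mouse liver, taken from single-cell RNA sequencing of 2 livers, 1 from an animal given the dioxin-like polychlorinated biphenyl PCB126 and 1 from a vehicle control. They were selected on their own transcripts: a barcode had to carry at least 500 unique molecular identifiers (UMIs, each standing for 1 captured transcript), at least 250 detected genes and at most 20% mitochondrially encoded UMIs, and then at least 30 UMIs of S100a8 and S100a9 together, at least 1 UMI of Csf3r, and at least 5 UMIs of Retnlg, Mmp8 and Prok2 together. This rule found 707 of the 3035 barcodes that passed the cell filter, 631 of them Control and 76 PCB126 cells. Their summed transcripts came to 2802322 UMIs in the Control and 329425 UMIs in the PCB126 library.

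Both mice were C57/BL6 and were labelled with an age of postnatal day 21, without saying at which step of the experiment that age applied. The Control animal received peanut oil (its treatment label reads Untreated) and the other received PCB126 at 20 µg/kg/day, stated both as a one-time gavage and as a daily dose. Exposure lasted 5 weeks in both animals and ended with a 12-hour fast. Livers were dissociated with enzymes, most hepatocytes were removed by repeated spins and a 30 µm strainer, and red blood cells were lysed with ammonium chloride before loading for a target of 6000 cells. Each group is 1 animal and 1 library, so a difference between animals and a difference between treatments cannot be told apart, no test between the groups is possible, and all intervals below cover counting error only.

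Neutrophils are short-lived granulocytes that leave the bone marrow under the control of the cytokine G-CSF, whose receptor is encoded by Csf3r. Their granule proteins are made in waves during marrow maturation, first those of the azurophil granules, then those of the specific granules (lactoferrin, cathelicidin, neutrophilic granule protein), then those of the gelatinase granules, so that transcripts of the early waves mark young cells. S100a8 and S100a9 encode the subunits of calprotectin, the most abundant cytosolic protein of neutrophils, Retnlg encodes resistin-like gamma, Mmp8 the neutrophil collagenase and Prok2 the chemoattractant peptide prokineticin 2. In the liver, neutrophils patrol the sinusoids and are recruited in numbers during injury and inflammation. PCB126 acts through the aryl hydrocarbon receptor (AHR), a ligand-activated transcription factor whose best known target is Cyp1a1.

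The deposited matrices held 8550 Control and 4307 PCB126 barcodes, of which 1886 (22.1%) and 1149 (26.7%) passed the cell filter. Only 3 barcode sequences occurred in both libraries, and none of them was a member. The exposure label was visible outside the members: in endothelial-marker cells (at least 10 UMIs of 12 endothelial marker genes and under 30 UMIs of S100a8 and S100a9, 327 Control and 659 PCB126 cells) a Cyp1a1 UMI was found in 8.59% of Control cells and 90.1% of PCB126 cells after each cell had been thinned to 1000 UMIs.

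Members made up 33.5% of the Control cells that passed the filter (exact 95% interval 31.3 to 35.6) and 6.61% of the PCB126 cells (5.25 to 8.21), a 5.06-fold lower share in the PCB126 library. Over all deposited barcodes the shares were 7.38% and 1.76%. The rule uses mitochondrial content, and more PCB126 barcodes were lost to it: 1698 PCB126 barcodes exceeded the mitochondrial limit alone, against 412 in the Control library. Among these, 29 of the PCB126 barcodes (1.71%) and 12 of the Control barcodes (2.91%) met the marker part of the rule. Beside the members kept, that was 29 against 76 in the PCB126 and 12 against 631 in the Control library. The limit thus removed a larger part of the PCB126 barcodes that met the marker part. Raising the limit to 50% gave 642 and 105 members and a 6.41-fold lower share in the PCB126 library, and lowering it to 10% gave 454 and 24 members and a 5.75-fold lower share. Shares of cells depend on all other cell types in a library and on losses during dissociation and red cell lysis, whose part in the result was not tested.

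Most neutrophil barcodes lay well inside the rule (plot of the selecting genes). Of the cells with enough S100a8, S100a9 and Csf3r, 81.0% of 779 Control cells (78.1 to 83.7) and 90.5% of 84 PCB126 cells (82.1 to 95.8) also reached 5 UMIs of Retnlg, Mmp8 and Prok2. Just inside that threshold, with 5 to 9 UMIs, were 99 Control and 9 PCB126 cells, and just outside, with 1 to 4 UMIs, were 103 and 4 cells. A further 45 Control and 4 PCB126 cells had none of the 3 transcripts. At 30 or more UMIs of the 3 genes stood 355 Control members (56.3%) and 48 PCB126 members (63.2%). The calprotectin and Csf3r thresholds cut few cells: 3 Control cells and 1 PCB126 cell had 20 to 29 calprotectin UMIs, and 25 Control cells and 1 PCB126 cell lacked only the Csf3r UMI.

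**Figure D1:**
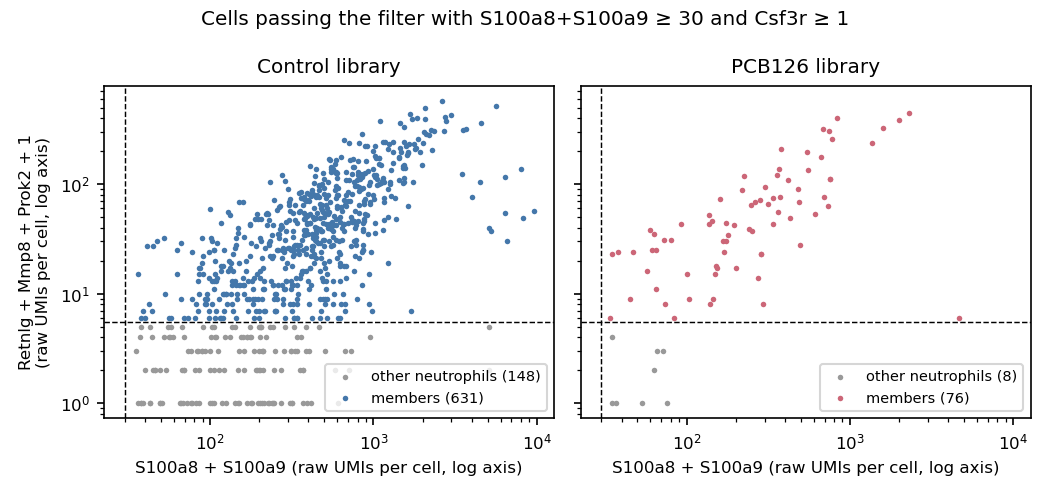
Each point is 1 barcode that passed the cell filter with at least 30 calprotectin UMIs and a Csf3r UMI. The horizontal axis gives its S100a8 and S100a9 UMIs and the vertical axis its Retnlg, Mmp8 and Prok2 UMIs plus 1, both on log axes, with dashed lines at the thresholds. Coloured points are the 631 Control and 76 PCB126 members and grey points the 148 and 8 other barcodes with fewer than 5 UMIs of the 3 genes. PCB126 members lie further left (median of 249.5 against 445 calprotectin UMIs) at similar heights (42 against 37).

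The 6 selecting genes are described without any test, because the members were chosen on them. Their levels are given in CPM, the UMIs of a gene divided by all UMIs of a library's members, times 1000000. S100a8 stood at 66319 CPM in the Control members and 41429.8 CPM in the PCB126 members, and S100a9 at 88458 and 56647 CPM, so both calprotectin subunits were lower in the PCB126 library, at 0.625 and 0.640 times the Control level. Retnlg went the other way, from 14017 CPM in the Control to 18250 CPM in the PCB126 members, and so did Csf3r, from 1482 to 1824 CPM. Mmp8 stood at 666 and 528 CPM and was found in 52.1% of Control and 64.5% of PCB126 members. Prok2 had 322 UMIs in 104 Control members (16.5%) and none in the 76 PCB126 members, where a count of 0 allows up to 3 counts. Retnlg was the gene that carried membership: 628 Control and 75 PCB126 members had a Retnlg UMI, and 622 and 74 had at least 5.

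The label was checked against neutrophil genes that the rule did not use. Of 20 further neutrophil genes, 19 were in the gene table and each had UMIs in the members of both libraries. After thinning to 1000 UMIs per cell, Il1r2, the decoy receptor for interleukin-1, was found in 35.2% of Control and 23.7% of PCB126 members, against 0% and 0.304% of endothelial-marker cells. Cxcr2, the receptor for neutrophil-attracting chemokines, was found in 56.3% and 68.4% of members, and Mmp9, the gelatinase, in 52.9% and 72.4%, whereas the endothelial-marker cells had shares of 0.307% and 0% for Cxcr2 and 0.613% and 0.152% for Mmp9. Median depths were similar, 3836 and 4017.5 UMIs in Control and PCB126 members, and deeper in the endothelial-marker cells at 6817 and 6169 UMIs. No member was left out by the thinning, and 1 Control and 2 PCB126 endothelial-marker cells were.

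Transcripts of other cell types were found in the members of both libraries at different levels. Scaled by the hepatocyte markers, the profile of barcodes with under 250 genes came to an estimated 21.7% of the Control and 5.03% of the PCB126 members' UMIs. Those barcodes had medians of 958 UMIs in the Control and 1120.5 UMIs in the PCB126 library, so their profile may not be background alone. The estimate also counts every hepatocyte-marker UMI of the members as background. With that profile subtracted, the counts of genes past 2-fold given below were 44 higher and 64 lower. The part of other cells' RNA in each single gene's difference was not tested. The 16 monocyte and macrophage markers summed to 417 CPM in Control and 294 CPM in PCB126 members, with 3 and 10 of them at 0. The 12 endothelial markers summed to 182 and 185 CPM and the 12 T and NK cell markers to 5.00 and 18.2 CPM. Lower in the PCB126 members were 15 hepatocyte markers at 719 against 216 CPM, 9 B and plasma cell markers at 387 against 42.5 CPM, and 7 erythrocyte markers at 18240 against 8305 CPM. In endothelial-marker cells the 4 compared erythrocyte genes were also lower, at a median log2 ratio of -3.96, whereas the hepatocyte markers were near level at 414 and 399.7 CPM and the B and plasma cell markers were higher, at 391 and 1966 CPM. In the PCB126 library 3 member cells held 99.0% of the Hbb-bs UMIs. Hemoglobin and immunoglobulin genes are not described as neutrophil genes.

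Across the transcriptome, 1101 genes had a mean of at least 100 CPM over both libraries and were compared, with the 6 selecting genes left out. In the PCB126 members 44 of them were at least 2-fold higher (4% of the genes compared) and 61 were at least 2-fold lower (5.54%), together 105 (9.54%). The middle of the distribution was slightly shifted, with a median log2 ratio of PCB126 over Control of 0.11 and 642 genes (58.3%) above 0. Scaling to that median instead of to the total gave 35 genes higher and 78 lower. Calprotectin took 15.5% of the Control and 9.81% of the PCB126 members' UMIs, and mitochondrially encoded genes took 7.33% and 12.1%, and a share taken by these genes is not available to the others. The plot of all compared genes marks the 12 genes with the highest and the 12 with the lowest ratio, ranked by the interval bound nearest to 1.

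Immediate early genes were mostly higher in the PCB126 members. They encode transcription factors and feedback regulators that are switched on within minutes of a stimulus. Of 18 compared genes of this list, 15 lay above 0 and 3 below, 8 were at least 2-fold higher against 4% of all genes, and the list's median log2 ratio was 0.83 against 0.11 for all genes. This list and those below were chosen with earlier results of these data known, so such counts are descriptions. Fos, a subunit of the AP-1 transcription factor, stood at 3372 CPM in Control and 9911 CPM in PCB126 members, 2.94-fold higher (2.82 to 3.06; this and the following ranges in parentheses are exact 95% counting intervals). Its partner Jun stood at 2884 and 7604 CPM, 2.64-fold higher (2.52 to 2.76), and Jund at 869 and 2453 CPM, 2.82-fold higher (2.60 to 3.06). Atf3, a stress-induced repressor of the same family, was 2.79-fold higher (2.60 to 2.99), at 1126 against 3139 CPM. Klf2, a zinc-finger factor that restrains myeloid activation, had a ratio of 1.57 (1.49 to 1.65). Dusp2, a phosphatase that switches off MAP kinases, went against the list at 342 CPM in Control and 94.1 CPM in PCB126 members, 3.63-fold lower (2.54 to 5.38).

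After thinning, a member carried a median of 32 UMIs of the 19 listed genes in the Control library, with quartiles at 22 and 46, and 66 UMIs in the PCB126 library, with quartiles at 51.75 and 79.5. Of the 76 PCB126 members, 68 lay above the Control median, and 42 of the 631 Control members lay above the PCB126 median. The ranges overlapped widely, from 3 to 103 UMIs in Control and from 5 to 134 UMIs in PCB126 members. Fos was found in 68.1% of Control and 94.7% of PCB126 members with medians of 2 and 10 UMIs, and in 3.68% and 1.98% of endothelial-marker cells. These genes are also known to be induced by enzymatic dissociation, whose part in the difference was not tested. In the endothelial-marker cells of the same suspensions, 9 compared genes of the list had a median log2 ratio of 0.05, with 5 above 0 and 4 below. Fos stood there at 162 CPM in Control and 123 CPM in PCB126 cells. Jun and Jund were higher in the PCB126 cells, at ratios of 1.15 (1.06 to 1.26) and 1.40 (1.25 to 1.58).

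Targets and feedback regulators of NF-kB, the transcription factor that drives inflammatory genes after Toll-like receptor and cytokine signals, were lower in the PCB126 members. Of 12 compared genes, 11 lay below 0, 7 were at least 2-fold lower against 5.54% of all genes, and the median log2 ratio was -1.13. As the list was chosen with earlier results of these data known, these counts describe it and are no independent support. Sod2, the mitochondrial superoxide dismutase, stood at 260.5 CPM in Control and 45.5 CPM in PCB126 members, 5.72-fold lower (3.45 to 10.3). Traf1, an adaptor of the TNF receptor family, stood at 235 and 45.5 CPM, 5.16-fold lower (3.10 to 9.27). Icam1, the adhesion molecule, was 3.16-fold lower (2.22 to 4.65) at 307 against 97.1 CPM, and Marcksl1, a regulator of cortical actin, 2.95-fold lower (2.41 to 3.64). Abundant genes of IkB proteins were lower too. Nfkbiz, encoding IkB-zeta, stood at 2479 and 1035 CPM, 2.39-fold lower (2.15 to 2.68). Nfkbia, encoding the inhibitor IkB-alpha, stood at 4858 and 2356 CPM, 2.06-fold lower (1.92 to 2.22). With at most 10% mitochondrial UMIs, Nfkbia had a log2 ratio of -0.92, and thinned members gave Icam1 a log2 ratio of -0.86.

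Cell by cell, the NF-kB list had a median of 16 UMIs per Control member, with quartiles at 11 and 22, and 6 UMIs per PCB126 member, with quartiles at 3 and 12. Of the Control members 560 of 631 lay above the PCB126 median, and 13 of the 76 PCB126 members lay above the Control median. Nfkbia was found in 90.6% of Control and 64.5% of PCB126 members after thinning, and in 24.8% and 23% of endothelial-marker cells. Both libraries thus held cells with none of the transcript at this depth, 59 Control and 27 PCB126 members. The 4 compared genes of the list in endothelial-marker cells had a median log2 ratio of -0.33.

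The promoter of Nfkbia is printed as an example from the NF-kB list, next to that of Cxcl2, a cytokine gene outside that list. Both come from RefSeq (GRCm38.p6), run from 250 bases before to 50 bases after the annotated start and read 5′ to 3′ on the strand of the gene. Capitals mark every match to the kappa B core GGGANTTTC on either strand (GAAANTCCC on the other). The Nfkbia promoter lies at chr12:55492598-55492897 on the minus strand and holds 2 matches, the Cxcl2 promoter at chr5:90903649-90903948 on the plus strand with 1 match.
Nfkbia: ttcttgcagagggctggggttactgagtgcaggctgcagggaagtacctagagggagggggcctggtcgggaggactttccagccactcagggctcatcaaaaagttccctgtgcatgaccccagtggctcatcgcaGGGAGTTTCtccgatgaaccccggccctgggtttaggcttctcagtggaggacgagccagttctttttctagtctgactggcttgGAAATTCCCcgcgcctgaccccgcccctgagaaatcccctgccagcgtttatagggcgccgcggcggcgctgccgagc
Cxcl2: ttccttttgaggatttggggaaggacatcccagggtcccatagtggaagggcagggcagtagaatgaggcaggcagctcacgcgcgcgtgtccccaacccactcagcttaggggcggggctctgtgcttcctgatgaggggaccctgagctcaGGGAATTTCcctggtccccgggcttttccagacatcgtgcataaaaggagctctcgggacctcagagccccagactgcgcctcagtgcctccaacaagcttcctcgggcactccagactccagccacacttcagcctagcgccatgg
Of 32851 RefSeq promoters of this length, 1.11% held the core, and counted by gene it was in 1.29% of 27025 genes. Of the 20 genes of the NF-kB list, 17 had a promoter in the table, 11 of them compared genes. The core was in 1 of these 11 and in 2 of the 17, Nfkbia and Nfkb2. A match is a run of letters, not a known binding site, and the other 15 promoters lacked only these letters in this window.

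Inflammatory cytokines were evenly split. Of 12 compared genes 6 lay above and 6 below 0, with a median log2 ratio of 0.04. Cxcl2, which attracts further neutrophils, stood at 23738 CPM in Control and 14352 CPM in PCB126 members, 1.65-fold lower (1.61 to 1.70), and was found in 97.1% and 80.3% of thinned members against 2.76% and 0.457% of endothelial-marker cells. Il1b, encoding interleukin-1 beta, was nearly level at 10195 and 9677 CPM, a ratio of 0.949 (0.915 to 0.985). Tnf stood at 639 and 258 CPM, 2.48-fold lower (1.99 to 3.12), and Il23a, a subunit of interleukin-23, at 168 and 45.5 CPM, 3.69-fold lower (2.22 to 6.65). In the PCB126 library 3 cells held 50.6% of the Tnf UMIs, and with thinned members the log2 ratio of Tnf was -0.71. In the other direction Ccl6, a chemokine of myeloid cells, stood at 1111 and 2787 CPM, 2.51-fold higher (2.33 to 2.70). The cytokines thus differed among themselves: Tnf and Il23a were past 2-fold lower, Cxcl2 was lower by less, and Il1b differed little.

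Receptors showed a similar mix. Among 21 compared pattern recognition and cytokine receptors, 8 lay above and 13 below 0, 1 was at least 2-fold higher (4% of all compared genes were) and 4 were at least 2-fold lower (5.54% of all), with a median log2 ratio of -0.24. Cd14, the co-receptor for bacterial lipopolysaccharide, stood at 1489 CPM in Control and 437 CPM in PCB126 members, 3.41-fold lower (2.89 to 4.05), and was found in 56.1% and 27.6% of them against 2.45% and 0.609% of endothelial-marker cells. Clec4e, the receptor Mincle, stood at 1679 and 765 CPM, 2.19-fold lower (1.93 to 2.50). Tnfrsf1b, the second TNF receptor, was 2.28-fold lower (1.57 to 3.43), with a log2 ratio of -0.72 at the 10% mitochondrial limit. Fcgr4, an activating receptor for IgG, was the exception at 68.2 and 155 CPM, 2.27-fold higher (1.63 to 3.11), but its log2 ratio was only 0.22 among the 110 Control and 32 PCB126 members without a UMI of Tnf, Il23a or Ptgs2. Fcer1g, the shared signalling chain of such receptors, had a ratio of 0.913 (0.826 to 1.01).

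Receptors that guide neutrophils through tissue were split as well, with 5 of 12 compared genes above 0, 7 below and a median log2 ratio of -0.22. Cxcr4, which returns ageing neutrophils to the bone marrow, stood at 369.7 CPM in Control and 774 CPM in PCB126 members, 2.09-fold higher (1.82 to 2.40), and was found in 33.1% and 48.7% of members against 0.920% and 0.152% of endothelial-marker cells. Without the 3 cells of each library richest in the gene its log2 ratio was 0.92. Here and below, that step leaves out 3 of 76 PCB126 but 3 of 631 Control members. By itself it lowers the ratio of a gene held by few cells. Ccr1, a chemokine receptor, had a ratio of 1.64 (1.44 to 1.86). On the other side were Ptafr, the receptor for platelet-activating factor, at a ratio of 0.497 (0.418 to 0.586), Ccrl2, a chemerin-binding receptor, at 0.579 (0.516 to 0.646), and Cd44, which anchors neutrophils to sinusoidal hyaluronan, at 0.720 (0.638 to 0.809).

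**Figure D2:**
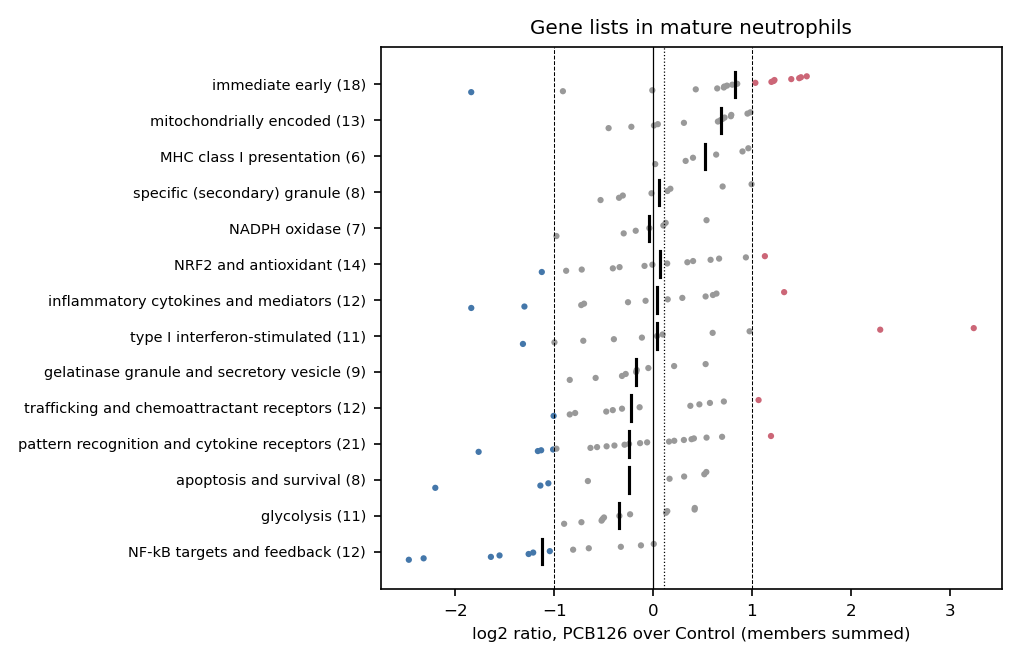
Each point is 1 compared gene of the named list and each black bar the list's median, on the log2 ratio of PCB126 over Control members. Numbers in parentheses count the compared genes, the dotted line is the median of all 1101 genes (0.11), and the dashed lines mark 2-fold (red higher, blue lower). The immediate early median lies at 0.83 and the NF-kB median at -1.13, and most other lists straddle 0.

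Type I interferon-stimulated genes held both the highest ratio of all and a set of lower members. Of 11 compared genes 6 lay above and 5 below 0, with a median log2 ratio of 0.04. Rsad2, encoding the antiviral enzyme viperin, had 78 UMIs in the Control and 87 in the PCB126 members, 27.8 and 264 CPM, 9.49-fold higher (6.91 to 13.0). Isg15, a ubiquitin-like modifier, stood at 39.6 and 194 CPM, 4.90-fold higher (3.55 to 6.73). Few cells carried these transcripts: Rsad2 was found in 46 of 631 Control and 14 of 76 PCB126 members before thinning, and the 3 PCB126 cells richest in each gene held 71.3% of the Rsad2 and 71.9% of the Isg15 UMIs. Without the 3 richest cells of each library the log2 ratios were 1.91 for Rsad2 and 0.80 for Isg15, the second within 2-fold. Again a larger part of the PCB126 than of the Control members was left out. The interferon-induced transmembrane genes ran the other way: Ifitm1 stood at 5096 and 2046 CPM, 2.49-fold lower (2.31 to 2.69), Ifitm2 at 2818 and 1727 CPM with a ratio of 0.613 (0.562 to 0.667), and Ifitm6 at 990.2 and 495 CPM with a ratio of 0.50 (0.424 to 0.585). Ifitm1 was found in 84.6% of Control and 61.8% of PCB126 members, with 2.45% and 0.913% in endothelial-marker cells. The summed list was accordingly lower per cell, with medians of 12 and 7 UMIs, and 15 of the 76 PCB126 members lay above the Control median.

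The promoters of Rsad2 and Isg15, the 2 genes with the highest ratios, are printed because type I interferon acts through a short promoter element whose core letters both hold. They come from RefSeq (GRCm38.p6) as above. Capitals mark matches to the core GAAANNGAA of the interferon-stimulated response element (TTCNNTTTC on the other strand), which may overlap each other. The Rsad2 promoter lies at chr12:26456403-26456702 on the minus strand with 1 match, on the opposite strand, and the Isg15 promoter at chr4:156200769-156201068 on the minus strand with 3 overlapping matches.
Rsad2: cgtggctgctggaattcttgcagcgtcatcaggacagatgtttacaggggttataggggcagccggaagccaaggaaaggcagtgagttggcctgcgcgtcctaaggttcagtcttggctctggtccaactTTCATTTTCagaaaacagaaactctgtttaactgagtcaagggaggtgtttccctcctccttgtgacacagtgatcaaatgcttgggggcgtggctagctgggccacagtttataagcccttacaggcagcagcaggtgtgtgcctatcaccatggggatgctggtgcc
Isg15: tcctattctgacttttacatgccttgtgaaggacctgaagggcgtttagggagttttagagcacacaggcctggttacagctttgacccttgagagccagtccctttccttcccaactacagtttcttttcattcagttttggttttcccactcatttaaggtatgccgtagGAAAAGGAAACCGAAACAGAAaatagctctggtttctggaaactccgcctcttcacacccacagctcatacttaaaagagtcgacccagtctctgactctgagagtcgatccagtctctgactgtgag
The core was in 8.56% of the 32851 promoters. Counted by gene, it was in 9.76% of 27025 genes and in 13 of the 26 interferon-list genes that had a promoter in the table (50%). Ifitm2, whose ratio lay below 1, also held it.

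Granule genes gave no uniform difference. No azurophil granule gene reached the level for comparison, with 180 UMIs of 7 genes in the Control and 5 in the PCB126 members. Of 8 compared specific granule genes 4 lay above and 4 below 0, none was past 2-fold and the median log2 ratio was 0.07. Camp, encoding cathelicidin, stood at 2222 and 4435 CPM, a ratio of 2.00 (1.88 to 2.11), just under 2-fold before rounding, yet all 1461 of its PCB126 UMIs came from 3 cells. Ltf, encoding lactoferrin, was level at 906 and 896 CPM, also with all its PCB126 UMIs in 3 cells, and Ngp, encoding neutrophilic granule protein, had a ratio of 0.788 (0.732 to 0.847). Lcn2, which encodes the iron-withholding lipocalin NGAL, had a ratio of 0.692 (0.647 to 0.739), Chil3, a chitinase-like lectin, 1.63 (1.43 to 1.85), and Cd177, a surface glycoprotein of neutrophils, 0.804 (0.621 to 1.03). Lyz2, encoding lysozyme, and Hp, encoding haptoglobin, had ratios of 1.13 (1.04 to 1.22) and 1.11 (1.01 to 1.21).

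A small group of cells with many specific granule transcripts stood inside the members of both libraries. Camp, Ltf and Ngp together reached 10 UMIs in 35 of 631 Control members (5.55%, 3.89 to 7.63) and 4 of 76 PCB126 members (5.26%, 1.45 to 12.9), and these cells held 98.2% and 99.5% of all UMIs of the 3 genes. In contrast, 469 Control members (74.3%) and 64 PCB126 members (84.2%) had none. The cells with at least 10 UMIs were deep, at medians of 9642 and 8378 UMIs. The levels of Camp, Ltf and Ngp therefore describe a few cells of each library. Ratios of other genes of the list also rested on few cells. Without the 3 cells of each library richest in the gene, the log2 ratio was -3.57 for Chil3, -1.61 for Cd177, -1.14 for Lcn2 and -0.26 for Lyz2. Chil3 and Lyz2 thus turned, while Hp was at 0.07. Leaving out 3 of 76 PCB126 but 3 of 631 Control members lowers such ratios by itself, so the turns cannot be read as a property of the genes.

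Genes of the later granules and of secretory vesicles gave 2 of 9 above 0 and 7 below, with a median log2 ratio of -0.17. Mmp9, the gelatinase itself, stood at 958 CPM in Control and 1384 CPM in PCB126 members, a ratio of 1.45 (1.31 to 1.60), and Slpi, the leukocyte protease inhibitor, had a ratio of 1.16 (1.07 to 1.25). Fpr1, the receptor for bacterial formyl peptides, had a ratio of 0.554 (0.423 to 0.714) and Itgb2, the common beta-2 integrin chain, 0.666 (0.534 to 0.821). None of these passed 2-fold.

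Among 17 compared genes of the neutrophil identity list beyond the selecting genes, 7 lay above and 10 below 0, with a median log2 ratio of -0.31. Past 2-fold were 3, each lower in the PCB126 members, beside 5.54% of all compared genes lower and 4% higher. Wfdc17, a secreted whey-acidic-protein family member, stood at 6894 and 3020.4 CPM, 2.28-fold lower (2.14 to 2.44), and Wfdc21, of the same family, at 3815 and 1639 CPM, 2.33-fold lower (2.13 to 2.54). Gm5483, a stefin-like gene with close paralogs between which reads can be split, was 2.33-fold lower (1.97 to 2.77). Msrb1, a methionine sulfoxide reductase, lay highest at a ratio of 1.64 (1.52 to 1.77). With at most 10% mitochondrial UMIs, which left 454 Control and 24 PCB126 members, the list's median was 0.04 and the log2 ratio of Wfdc21 was -0.63. Calprotectin's relatives followed it in part: S100a6 had a ratio of 0.624 (0.587 to 0.663), S100a11 1.35 (1.28 to 1.43) and the pro-resolving annexin Anxa1 0.770 (0.682 to 0.866).

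All 6 compared genes of MHC class I presentation lay above 0, with a median log2 ratio of 0.52 and none past 2-fold, and with the ratios scaled to the median of all genes 5 of the 6 lay above 0. H2-K1 stood at 346 CPM in Control and 647 CPM in PCB126 members, a ratio of 1.87 (1.60 to 2.17), H2-D1 at 1603 and 2495 CPM with a ratio of 1.56 (1.44 to 1.68), and the invariant subunit B2m had a ratio of 1.26 (1.13 to 1.40). H2-K1 was found in 29.8% and 51.3% of members, and in 60.1% and 81.3% of endothelial-marker cells. H2 genes are similar in sequence and reads can be shared between them. In endothelial-marker cells the same list had a median log2 ratio of 0.78 over 10 genes. Cd74, the MHC class II invariant chain, had a 7.32-fold lower level (3.69 to 17.0), but in the Control library 3 cells held 80.1% of its UMIs, and without likely doublets its log2 ratio was -0.56.

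The oxidative burst and its defences were mostly near level. Of 7 compared NADPH oxidase genes 3 lay above and 4 below 0, with a median log2 ratio of -0.04. Cybb, the catalytic subunit, was lowest at a ratio of 0.503 (0.365 to 0.677). Without its 3 richest cells in each library the log2 ratio was -2.11, a step that leaves out a larger part of the PCB126 members. Of 14 genes of the NRF2 antioxidant list 7 lay on each side with a median log2 ratio of 0.07. Nfe2l2, encoding NRF2 itself, stood at 1320.3 and 604 CPM, 2.19-fold lower (1.89 to 2.53), whereas Gpx4, which repairs lipid peroxides, stood at 181 and 395 CPM, 2.19-fold higher (1.79 to 2.66), with a log2 ratio of 0.97 at the 50% mitochondrial limit. Genes of iron handling included Slc40a1, the iron exporter ferroportin, at 129 and 319 CPM, 2.47-fold higher (1.97 to 3.07), and the ferritin chains Ftl1 and Fth1 at ratios of 1.70 (1.62 to 1.79) and 0.886 (0.855 to 0.918).

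The AHR gene battery was examined because PCB126 is an AHR ligand. Of 11 genes 3 were expressed enough to compare, and all lay slightly below 0: Tiparp, a target of AHR that in turn represses it, at 272 and 237 CPM with a ratio of 0.872 (0.682 to 1.10), Xdh at 0.858 (0.591 to 1.21) and Lpcat2 at 0.789 (0.595 to 1.03). Cyp1a1 had 18 UMIs in 4 of 631 Control members and 12 UMIs in 10 of 76 PCB126 members, with at most 2 UMIs in any PCB126 member. Its level was 6.42 CPM in Control and 36.4 CPM in PCB126 members, 5.67-fold higher (2.49 to 12.4), against 154 and 4483 CPM in the endothelial-marker cells, and 94.4% of its Control UMIs came from 3 members. After thinning, Cyp1a1 was found in 1.32% of PCB126 members and 90.1% of PCB126 endothelial-marker cells. Ahrr and Aldh3a1 had no UMI in the members of either library, and Cyp1b1 and Nqo1 had 11 and 17 UMIs in Control and none in PCB126 members, which is too few to tell the libraries apart.

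Mitochondrially encoded transcripts were higher in the PCB126 members, with 11 of 13 genes above 0 and a median log2 ratio of 0.68, although none was past 2-fold. The mitochondrial share of a member had a median of 7.64% in the Control and 11.7% in the PCB126 library, and the rule capped it at 20% in both. With the cap at 10% the list's median was 0.28 and with the cap at 50% it was 1.01. Endothelial-marker cells differed in the same direction, with a median log2 ratio of 0.51 over the 13 genes. Nuclear genes of oxidative phosphorylation stood at the level of all genes, with 5 of 8 above 0 and a median of 0.11. Glycolytic genes, on which neutrophils rely for energy, had 4 of 11 above 0 and a median log2 ratio of -0.34, with Gapdh at 973 and 677 CPM, a ratio of 0.696 (0.604 to 0.798), and the lactate exporter Slc16a3 at 0.532 (0.404 to 0.690).

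Genes that govern neutrophil lifespan differed in both directions, with 4 of 8 above 0 and 3 at least 2-fold lower, against 5.54% of all compared genes. Bcl2l11, encoding the pro-apoptotic protein BIM, stood at 579.5 CPM in Control and 124 CPM in PCB126 members, 4.66-fold lower (3.42 to 6.51), and was found in 36.3% and 10.5% of members against 6.13% and 3.65% of endothelial-marker cells. Inhibitors of death receptor signalling were also lower, Birc3 at a ratio of 0.449 (0.320 to 0.615) and Cflar at 0.472 (0.305 to 0.700), though their log2 ratios were -0.65 at the 10% mitochondrial limit and -0.73 without cells expressing Tnf, Il23a or Ptgs2, respectively. Mcl1, the survival protein on which neutrophils depend, stood at 2666 and 3873 CPM, a ratio of 1.45 (1.37 to 1.54).

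Granulocyte transcription factors, the actin cytoskeleton and heat shock genes lay near the median of all genes, with list medians of 0.15, 0.08 and -0.10 over 6, 18 and 5 compared genes. Spi1, encoding the lineage factor PU.1, was level at a ratio of 1.00 (0.876 to 1.15), Cebpb had a ratio of 0.801 (0.735 to 0.872) and Cebpd 1.61 (1.36 to 1.91). Actb was level at 6838 and 6827 CPM, and Tmsb4x, which sequesters actin monomers, had a ratio of 1.57 (1.52 to 1.62). Cytosolic ribosomal protein genes had a median log2 ratio of -0.19 over 69 genes.

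Further genes among the 24 most different belonged to no list. Higher in the PCB126 members were Fgl2, a prothrombinase and immune regulator, at 237 and 729 CPM, 3.07-fold higher (2.64 to 3.57), Jaml, an adhesion molecule of transmigrating neutrophils, 3.05-fold higher (2.50 to 3.70), and Plin2, which coats lipid droplets, 2.75-fold higher (2.43 to 3.10). The little-described genes 9930111J21Rik2, AC160051.2 and Gm16556 were 3.85-fold (2.87 to 5.12), 3.40-fold (2.52 to 4.55) and 3.35-fold (2.50 to 4.46) higher. Lower in the PCB126 members were Dusp16, a phosphatase of stress kinases, at 239 and 33.4 CPM, 7.15-fold lower (3.97 to 14.4), Mapkapk2, the kinase MK2 that stabilises cytokine mRNAs, 4.42-fold lower (3.04 to 6.68), and Prkd3, a protein kinase D, 6.0-fold lower (3.41 to 11.7). Saa3, an acute-phase protein, was 15.5-fold lower (6.02 to 57.2), with 4 UMIs in the PCB126 members. It had 688 UMIs in Control and 1 in PCB126 endothelial-marker cells, so that it differed in those cells as well.

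**Figure D3:**
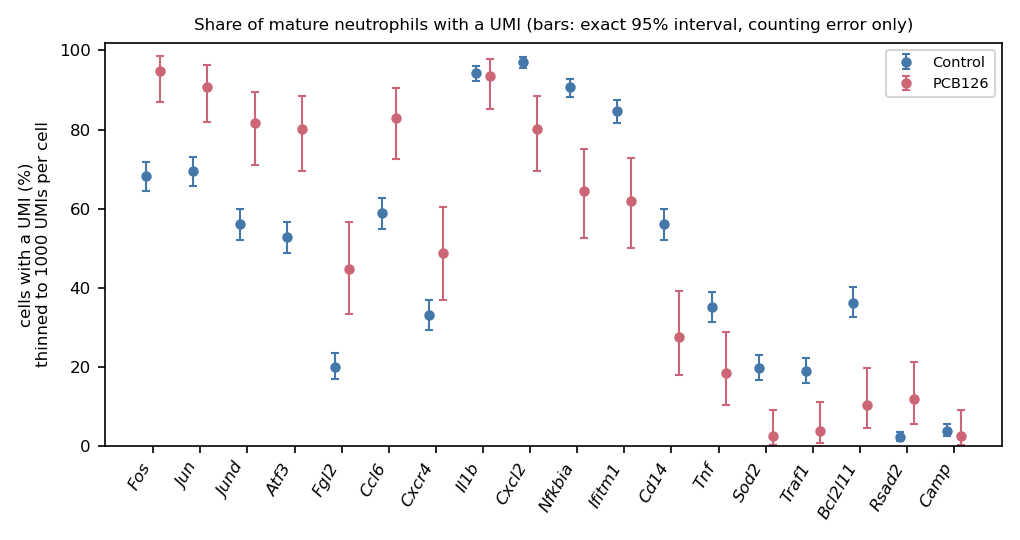
Points give the share of members with at least 1 UMI of a gene after thinning each cell to 1000 UMIs, with exact 95% intervals for counting error only, for 631 Control and 76 PCB126 members. Fos was found in 68.1% and 94.7% of cells and Bcl2l11 in 36.3% and 10.5%, whereas Il1b was found in 94.3% and 93.4%.

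Members varied widely within a library. They ran from 1242 to 32903 UMIs in the Control and from 1260 to 14988 UMIs in the PCB126 library, and calprotectin UMIs from 36 to 9575 and from 34 to 4634. Across the cells of a library, the NF-kB list and the cytokine list went together (Spearman's rho 0.36 over 631 Control and 0.50 over 76 PCB126 members), NF-kB and Retnlg UMIs went apart (-0.32 and -0.20), and specific granule and Retnlg UMIs went together (0.35 and 0.39). The immediate early and the NF-kB lists, which differed in opposite directions between the libraries, were nearly unrelated within them (0.13 and 0.03). Immediate early and Retnlg UMIs had values of 0.06 and -0.23. Retnlg is a selecting gene, so the rule limited the range of its UMIs in all values that use it. Cells of a library share their source and a fixed depth of 1000 UMIs, so these are descriptions.

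**Figure D4:**
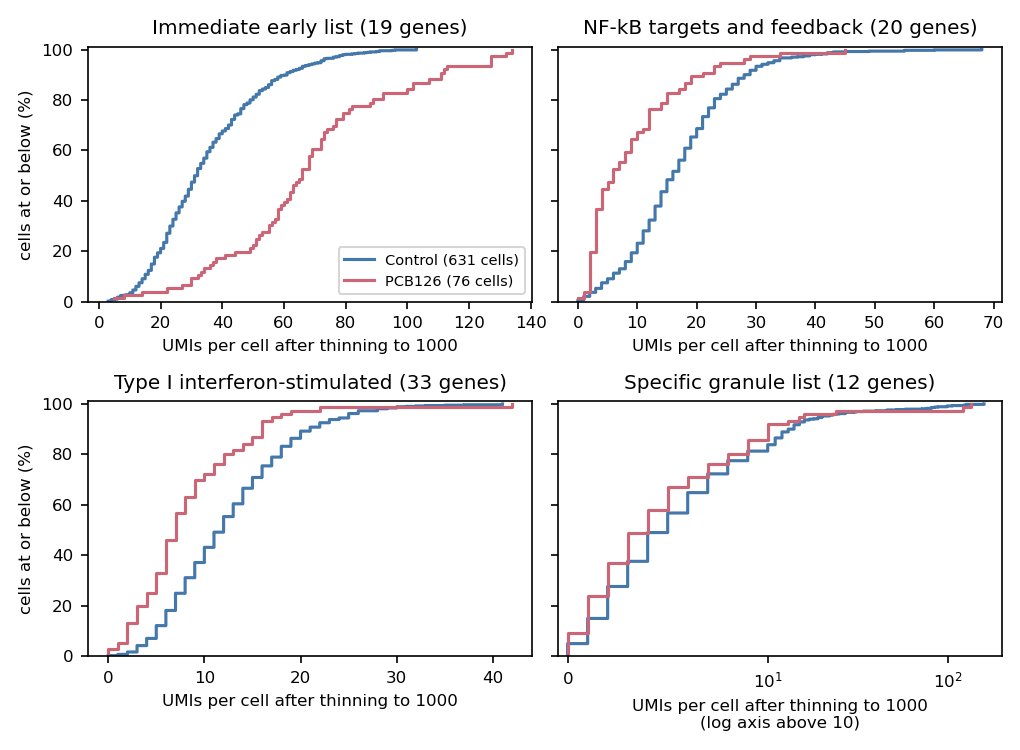
Each panel gives, for 631 Control and 76 PCB126 members thinned to 1000 UMIs, the percentage of cells at or below a number of UMIs of a gene list. Immediate early UMIs lie further right in the PCB126 members (medians of 66 against 32) and NF-kB UMIs further left (6 against 16). The summed UMIs of the interferon list also lie further left (7 against 12), although 6 of its 11 compared genes lay above 0. The specific granule curves run close together.

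The nearest other cells met the calprotectin and Csf3r parts of the rule but fell below the Retnlg, Mmp8 and Prok2 threshold. There were 148 in the Control and 8 in the PCB126 library. The contrast was set by the rule and only the Control library had cells enough to describe it. Members had more of the neutrophil identity genes than these cells, with 16 of 17 above 0 and a median log2 ratio of 0.56, against -0.11 for the 1109 genes compared there. All 11 glycolytic genes were above 0 as well (median 0.43), as were 7 of 8 specific granule genes (0.59). Below 0 were 15 of 17 NF-kB genes (-0.42), all 5 MHC class I genes (-0.39) and 72 of 75 ribosomal protein genes (-0.74). Nfkbia stood at 7016 CPM in the 148 Control cells below the threshold, at 4858 CPM in Control members and at 2356 CPM in PCB126 members. The 4 compared B and plasma cell markers were far lower in the members than in the cells below the threshold, with a median log2 ratio of -6.04. The part of other cells' RNA in this contrast was not tested, nor whether all cells below the threshold are neutrophils.

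The differences were also read in the endothelial-marker cells of the same libraries, where 1475 genes were compared and the median log2 ratio was -0.00. These cells held neutrophil transcripts too, at lower levels in the PCB126 library. The 6 selecting genes summed there to 147 CPM in Control and 24.98 CPM in PCB126 cells. The specific granule list summed to 795 and 271.5 CPM, and the monocyte and macrophage markers to 631 and 156 CPM. The part of neutrophil and monocyte RNA in the ratios below was not tested. Of the genes named below, only Saa3, Nfkbia, Plin2, Fos, Cd74 and Cyp1a1 reached the level for comparison in the endothelial-marker cells. The others lay below that level, some with few UMIs. Jaml had 8 UMIs in Control and 82 in PCB126 cells, and Dusp2 had 35 and 7. Ratios of genes below the level are given as descriptions only. In the same direction as in the members were the mitochondrially encoded genes (10 of 13 above 0) and MHC class I genes (10 of 10), Saa3, Fgl2 (2.55-fold higher, 1.68 to 3.99), Jaml (5.81-fold higher, 2.81 to 13.9) and Ifitm1 at a ratio of 0.441 (0.347 to 0.560). The 4 compared NF-kB genes were all below 0 there as well, 1 of them past 2-fold. Among genes lower in the members, ratios in the endothelial-marker cells were 0.113 (0.0425 to 0.259) for Dusp2, 0.423 (0.291 to 0.612) for Cd14, 0.487 (0.325 to 0.726) for Traf1 and 0.511 (0.368 to 0.709) for Dusp16. They were 0.556 (0.458 to 0.675) for Sod2, 0.608 (0.489 to 0.757) for Bcl2l11 and 0.803 (0.734 to 0.879) for Nfkbia. Prkd3 and Mapkapk2 had ratios of 1.02 (0.856 to 1.21) and 0.883 (0.709 to 1.10). Rsad2 and Isg15, higher in the members, were also higher there, at 1.48 (1.17 to 1.87) and 1.57 (1.13 to 2.20). On the other side of 1 than in the members were Plin2 at a ratio of 0.774 (0.673 to 0.890) and Fos at 0.761 (0.670 to 0.865). So were 9930111J21Rik2 at 0.843 (0.716 to 0.994) and Cd74 at 1.88 (1.76 to 2.00). Cyp1a1 differed there by 29.1-fold (26.3 to 32.2). The immediate early list, by contrast, had 5 of 9 genes above 0 there, and 15 of 18 in the members. No test of the difference between the cell types was possible with 1 library per group.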

How the data were processed

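Single-cell RNA was measured in 2 mouse livers, 1 library per group. The deposited matrices hold whole-number UMI counts per gene and barcode, not normalized. Per the file headers they were written by Cell Ranger 6.0.0, and per the submitters' processing notes Cell Ranger 6.1.1 and Seurat 4.0.1 were used. The genome build was not given in the sources used here, nor was the annotation. Of 34244 gene identifiers, 34049 were found in the reference annotation.

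Members were selected by the rule stated above, summed per library and divided by their total (CPM). The members and gene lists were chosen with earlier results of these data known. Genes with a mean of at least 100 CPM entered, apart from the 6 selecting genes. The log2 ratios had 0.5 counts added to each library. Ratios carry exact binomial intervals and shares Clopper-Pearson intervals at 95%, for counting error only. Named genes were the 6 selecting genes, the 12 highest and 12 lowest by the interval bound nearest 1 (without mitochondrially encoded genes and other-cell markers), from each described list all compared members where 8 or fewer, otherwise the 4 farthest from 1 and the 2 with the most UMIs, plus the AHR battery and other-cell markers. A few neutrophil markers outside this rule are used only to check the label.

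Doublets were kept. An alternative left out the cells with the highest Scrublet scores at 0.8% per 1000 barcodes (28 Control and 11 PCB126 cells, of which 11 and 0 members). Scrublet's own call marked 8 and 3 cells. Subtraction of a background profile from barcodes under 500 UMIs could not be run, since the lowest barcodes had 534 and 865 UMIs. Barcodes under 250 genes were used instead (6252 Control and 1460 PCB126). That and 3 further alternatives were chosen after seeing the data. The scripts were tested on simulated data. Python 3.11.15, numpy 2.4.6, pandas 2.3.3, scipy 1.17.1, scanpy 1.11.5 and matplotlib 3.10.9 were used.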

Additional observations from a re-analysis of the deposited data

How the results depend on the processing

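The share of members was lower in the PCB126 library under all 11 alternatives run for it, between 4.35-fold and 6.41-fold. The number of genes at least 2-fold higher was 44 as reported (4% of 1101). It was 83 (7.30%) with at most 10% mitochondrial UMIs, 72 (6.45%) with the rule applied after thinning and 103 (9.25%) with members thinned to 1000 UMIs. At a mean of at least 50 CPM it was 107 (5.44% of 1967 genes) and at 200 CPM 27 (4.75% of 569). Among members without Tnf, Il23a or Ptgs2 UMIs it was 75 (7.02%). The number at least 2-fold lower, 61 as reported, was 94 at 50 CPM (4.78%, against 5.54% as reported) and 36 at 200 CPM (6.33%). It was 61 (5.365%) at the 10% mitochondrial limit, 70 (6.29%) with thinned members and 53 (4.96%) without Tnf, Il23a or Ptgs2 UMIs. Under those alternatives and at 50 CPM more genes were higher than lower, the reverse of the reported counts. Of 21 list medians, 8 kept their sign under every alternative that gave a value. Those that did not included cytokines (same sign in 17 of 21), NRF2 (17 of 21), NADPH oxidase (18 of 21), interferon (15 of 21), specific granule (14 of 20), heat shock (15 of 20), actin (19 of 21), apoptosis (19 of 21), nuclear oxidative phosphorylation and granulocyte transcription factors (20 of 21 each). The remaining 3 turned under 1 alternative each: with at most 10% mitochondrial UMIs for neutrophil identity (0.0449) and for S100 and annexin genes (0.0165), and for trafficking receptors among members without Tnf, Il23a or Ptgs2 (0.0416). The cause was not tested. The immediate early median stayed between 0.57 and 0.89 and the NF-kB median between -1.48 and -0.93 over 21 alternatives. The interferon median ran from -0.25 to 0.62 and the specific granule median from -0.89 to 0.81. Of 49 named genes past 2-fold, all 49 kept their sign and 30 stayed past 2-fold under every alternative that gave a value. Without the 3 cells of each library richest in a gene, log2 ratios moved further from 0 for Sod2 (-4.11), Traf1 (-3.66), Dusp16 (-4.03), Prkd3 (-3.32), Dusp2 (-2.84), Il23a (-3.38), Icam1 (-2.77), Tnf (-2.17), Saa3 (-6.17) and Ifitm6 (-1.71). That step leaves out 3 of 76 PCB126 but 3 of 631 Control members. By itself it lowers the ratio of a gene held by few cells, so these shifts are not a result about the genes. No paired analysis was possible because each group is 1 library. The 76 PCB126 members limit the precision of every ratio.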
